A study of Mus musculus with 35 samples.

Results

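The genes described here were 38 genes of mitosis and DNA replication, taken by their symbols from the 35976 symbols of each count table. They comprised 2 chromosome and proliferation markers, 6 mitotic kinases or checkpoint genes, 5 genes of the mitotic cyclins and the anaphase promoting complex, 13 genes of the spindle, kinetochore or cytokinesis, 9 genes of DNA replication and 3 G1 cyclins. All 38 were among the 21318 symbols with at least 10 counts in 1 or more of the deeply sequenced libraries. RNA-seq was performed on 2 tissues, medulla and cervical spinal cord, of mice with spinocerebellar ataxia type 7 (SCA7), a knock-in strain with 266 glutamine repeats encoded in one ataxin-7 allele and 5 in the other (266Q/5Q). WT littermates were the controls, both sexes were used and the strain was C57Bl/6J. The mutant allele is driven by the gene's own promoter rather than by a cell type promoter.

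At P8 there were 2 WT and 2 SCA7 libraries labelled medulla, and 1 WT and 2 SCA7 libraries labelled cervical spinal cord. At 5 weeks there were 2 libraries of each genotype in each tissue, and at 9 weeks 5 of each genotype in each tissue. The 35 libraries were assigned to 18 mice, since most mice gave both tissues. The paper's methods state fewer WT mice than this assignment, which is used for all statements on shared mice here.

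Dividing cells copy their DNA in S phase and separate the copies in mitosis, and most of the genes that do this work are expressed mainly in those phases. G1 cyclins act earlier, when a cell commits to a new cycle, and cyclin D1 is also expressed in cells that do not divide. In the brainstem and spinal cord neurons are born largely before birth, whereas glial precursors and vascular cells continue to divide after it.

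Depth differed widely. There were 15 libraries with 28969003 to 99353286 counts (called deep here) and 20 with 95917 to 396417 (shallow), so all tests rest on the 15 libraries over 1000000 counts. Under the medulla label these were 2 WT and 1 SCA7 at P8, 2 WT at 5 weeks, and 2 WT and 2 SCA7 at 9 weeks. Under the cervical label they were 1 WT at P8, 1 WT at 5 weeks, and 2 WT and 2 SCA7 at 9 weeks. The deep SCA7 libraries of both tissues at 9 weeks came from the same 2 mice. WT replicate 5 at 9 weeks and WT replicate 2 at 5 weeks each gave a deep library of each tissue. At P8 the deep library labelled cervical spinal cord and WT replicate 2 labelled medulla came from 1 mouse. The 15 deep libraries thus came from 10 mice, and the tests did not account for shared mice. A group with 1 deep library was assumed to vary like the others.

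The tissue labels at P8 went against tissue markers, which were chosen after their values were seen. *Hoxc6*, *Hoxa7*, *Hoxc8* and *Hoxd8*, homeobox genes of the spinal cord, summed to 118 to 300.3 counts per 1000000 counts of the library (library CPM) in the 5 deep adult libraries labelled cervical spinal cord, and to 0.0786 to 3.50 in the 6 deep adult libraries labelled medulla. In the 3 deep P8 libraries labelled medulla the sum was 213 to 348 library CPM, and in the deep P8 library labelled cervical spinal cord it was 3.90. *Slc6a2* and *Slc6a4*, transporters that mark noradrenergic and serotonergic neurons of the brainstem, had the opposite order. They summed to 8.75 to 111 library CPM in deep adult medulla and 0.136 to 0.548 in deep adult cervical cord, against 0.222 to 0.703 in the deep P8 libraries labelled medulla and 36.4 in the one labelled cervical spinal cord. Among the shallow P8 libraries, the 1 labelled medulla held 250.2 library CPM of the homeobox genes and 0 of the brainstem genes, and the 2 labelled cervical spinal cord held 0 of the homeobox genes. Of the latter, 1 held 21.7 library CPM of the brainstem genes (7 counts) and the other held 0 counts of both sets, in 105968 counts. Thus 6 of the 7 P8 libraries carried the markers of the other tissue, and 1 showed neither set. Groups were kept as labelled. The counts of genes called in WT are given with the P8 libraries of each label, and single genes were compared with those labelled medulla where no other label is named. Age and tissue cannot be told apart in a change from P8 of the same label.

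Promoter sequences, 250 bases before to 50 after the start of the gene, were matched for 31 of the 38 genes (RefSeq, build GRCm38.p6), giving 34 promoters since *Ect2*, *Mcm7* and *Prc1* had 2 starts each. *Aurkb*, *Ccna2*, *Kif20a*, *Tpx2*, *Mcm4*, *Ccne2* and *Ccnd1* were not matched. The motifs searched, on both strands, were the cell cycle genes homology region (CHR, TTTGAA or TTTAAA), the CCAAT box (CCAAT) and the E2F site (TTTCCCGC, TTTGGCGC, TTTGGCGG or TTTCGCGC). Matches can overlap, as with 2 E2F words in *Mcm6* and a CHR and a CCAAT box that share 1 base in *Cdca8*. The last 200 bases before the start of 6 genes are shown because they stand for genes with large and small changes after P8, with every matched motif in capitals:
Mki67, chr7:135716380-135716579, minus strand: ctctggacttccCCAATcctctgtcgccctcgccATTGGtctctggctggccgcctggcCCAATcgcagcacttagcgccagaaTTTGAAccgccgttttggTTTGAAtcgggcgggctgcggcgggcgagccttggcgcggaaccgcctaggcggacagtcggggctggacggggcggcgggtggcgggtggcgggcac
Cdk1, chr10:69352913-69353112, minus strand: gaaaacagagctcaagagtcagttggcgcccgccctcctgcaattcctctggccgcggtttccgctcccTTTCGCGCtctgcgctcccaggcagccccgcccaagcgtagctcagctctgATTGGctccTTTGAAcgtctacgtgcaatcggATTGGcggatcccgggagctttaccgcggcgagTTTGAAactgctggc
Ccnb1, chr13:100786487-100786686, minus strand: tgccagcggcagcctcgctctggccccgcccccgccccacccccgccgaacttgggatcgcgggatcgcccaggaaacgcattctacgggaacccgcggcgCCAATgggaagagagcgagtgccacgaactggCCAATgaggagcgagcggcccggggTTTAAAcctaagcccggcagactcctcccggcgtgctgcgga
Cdc20, chr4:118437344-118437543, minus strand: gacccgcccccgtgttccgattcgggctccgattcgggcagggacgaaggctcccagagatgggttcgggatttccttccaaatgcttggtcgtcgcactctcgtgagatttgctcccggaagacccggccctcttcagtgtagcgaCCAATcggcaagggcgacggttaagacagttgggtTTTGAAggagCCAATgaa
Mcm6, chr1:128359706-128359905, minus strand: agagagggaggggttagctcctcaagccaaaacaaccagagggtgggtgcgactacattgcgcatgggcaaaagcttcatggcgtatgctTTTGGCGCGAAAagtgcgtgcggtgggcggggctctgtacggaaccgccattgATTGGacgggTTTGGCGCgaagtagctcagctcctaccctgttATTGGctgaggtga
Pcna, chr2:132253181-132253380, minus strand: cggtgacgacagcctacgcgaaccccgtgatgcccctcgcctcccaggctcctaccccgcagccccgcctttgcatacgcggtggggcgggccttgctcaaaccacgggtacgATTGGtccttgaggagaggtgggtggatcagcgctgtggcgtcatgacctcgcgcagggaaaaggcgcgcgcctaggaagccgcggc

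Of the 24 promoters of mitosis genes, 22 (91.7%) held a CHR, 22 held a CCAAT box and 21 (87.5%) held both. Among all 32851 promoters of this length 27.6% held a CHR, 37.4% a CCAAT box and 10.7% both. Of the 9 promoters of DNA replication genes, 4 (44.4%) held an E2F site, against 2.37% of all promoters and 1 of the 24 promoters of mitosis genes, that of *Cdk1*. *Ccnb1*, mitotic cyclin B1, had a CHR at bases -42 to -37 from the start and CCAAT boxes at -99 to -95 and -67 to -63. *Mcm6*, a subunit of the replicative helicase, had 3 E2F words and 2 CCAAT boxes and no CHR. *Pcna*, the sliding clamp of the DNA polymerases, had 1 CCAAT box at -87 to -83 and no match to the other motifs. A match is a description of these letters and not a binding site.

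The summed level of the 38 genes was higher at P8 than in any adult library. In deep libraries labelled medulla, the summed normalised level (CPM, with library sizes scaled by TMM) was 750.1 and 812 CPM in WT and 656 CPM in SCA7 at P8. It was 152 and 154 CPM in WT medulla at 5 weeks, 162 and 156 CPM in WT and 154 and 160.3 CPM in SCA7 medulla at 9 weeks. Under the cervical label it was 526 CPM in WT at P8, 178 CPM in WT at 5 weeks, 204 and 191 CPM in WT and 179 and 181 CPM in SCA7 at 9 weeks. All deep P8 libraries lay above all deep adult libraries, whichever label was used. In tissue RNA, fewer cells of a type and less RNA per cell cannot be told apart.

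The 20 shallow libraries showed the same separation by age. The counts of the 38 genes summed to 63 to 197 in the 3 shallow P8 libraries, or 610 to 896 library CPM, and to 12 to 30 in the 17 shallow adult libraries, or 63.1 to 249.9 library CPM. The lowest P8 library lay above the highest adult library, WT cervical cord replicate 2 at 9 weeks. The 28 counts of the latter gave an exact 95% binomial interval of 166 to 361. Such intervals cover counting error only.

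**Figure D1:**
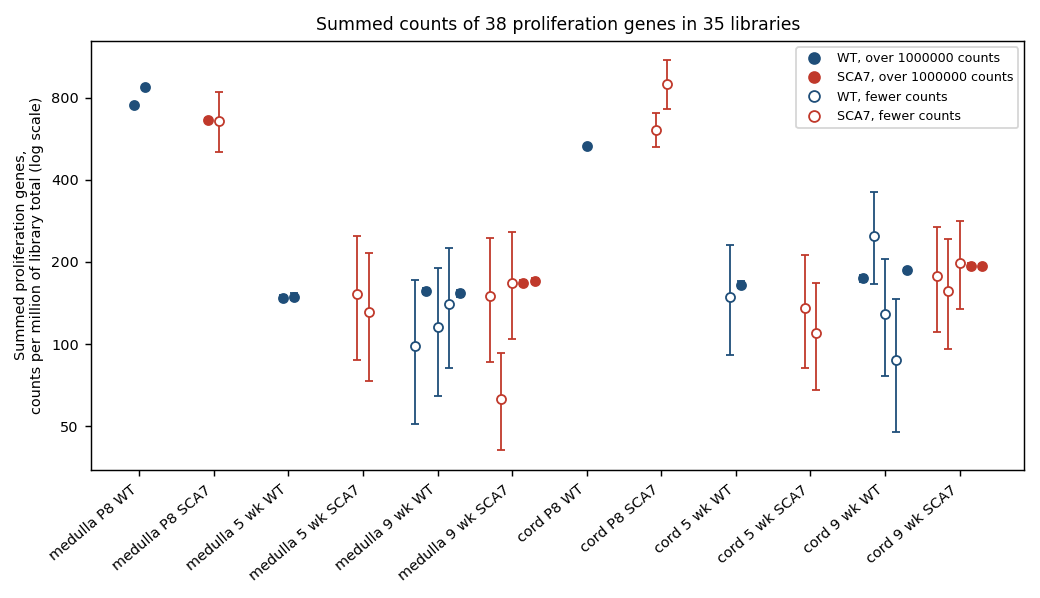
Summed counts of the 38 proliferation genes per 1000000 counts of the library (log axis) in all 35 libraries by labelled group. Filled points are libraries over 1000000 counts, open points shallower ones, and bars are exact 95% binomial intervals. The 7 P8 libraries sit between 529.9 and 896 and the adult libraries between 63.1 and 249.9.

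In WT medulla at 5 weeks, 37 of the 38 genes were lower than in the P8 libraries labelled medulla, with a median log2 fold change of -3.59 (12.1-fold). Of all 21318 genes tested 14.8% were lower and 13.5% higher (28.2% in all), with a median of -0.02. At 9 weeks 37 were again lower (median -3.42), against 15.2% of all genes lower and 13.7% higher (28.9% in all). Against the P8 library labelled cervical spinal cord, 32 were lower at 5 weeks (median -3.02), with 9.48% of all genes lower and 7.09% higher, and 33 at 9 weeks (median -2.86), with 10.9% lower and 8.51% higher. None of the 38 was higher in any of these 4 comparisons, which share libraries and, between the P8 labels, a mouse. A call here is an adjusted p below 0.05 in edgeR's quasi-likelihood test with Benjamini-Hochberg adjustment over all genes.

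The chromosome and proliferation markers had the largest median change of the roles in WT medulla at 5 weeks (-6.54). *Mki67*, which encodes the Ki-67 coat of mitotic chromosomes (chr7:135689784-135716450), was at 54.3 and 65.6 CPM in WT and 50.9 CPM in SCA7 in the P8 libraries labelled medulla, and at 30.2 CPM in the one labelled cervical cord. In medulla it was at 0.514 and 1.27 CPM in WT at 5 weeks, 1.13 and 0.667 CPM in WT and 0.702 and 0.678 CPM in SCA7 at 9 weeks. At 5 weeks in cervical cord it was at 2.26 CPM, and at 9 weeks it was at 2.06 and 1.72 CPM in WT and 0.664 and 2.12 CPM in SCA7 at 9 weeks. No adult library reached a P8 library, and the log2 fold change in WT medulla at 5 weeks was -6.08 (SE 0.49, adjusted p = 4.4e-05), or -5.09 with the P8 library of the other label.

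*Top2a*, the topoisomerase that untangles replicated chromosomes (chr11:98992947-99024199), was at 64.2 and 69.6 CPM in WT and 48.7 CPM in SCA7 in the P8 libraries labelled medulla, and at 36.6 CPM in the one labelled cervical cord. Medulla libraries held 0.595 and 0.432 CPM at 5 weeks, 1.01 and 0.242 CPM in WT and 0.477 and 0.123 CPM in SCA7 at 9 weeks. Cervical cord libraries held 1.75 CPM at 5 weeks, and 1.42 and 0.642 CPM in WT and 0.822 and 0.515 CPM in SCA7. Its change in WT medulla at 5 weeks, -7.01 (SE 0.54, 129-fold), was the largest of the 38 in that comparison, and was -6.14 with the P8 library of the other label.

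All 6 mitotic kinases and checkpoint genes were lower in WT medulla at both adult ages than in the P8 libraries labelled medulla, with a median of -3.68 at 5 weeks. *Cdk1*, the kinase that drives entry into mitosis (chr10:69335146-69352912), was at 13.7 and 17.6 CPM in WT and 11.6 CPM in SCA7 in the P8 libraries labelled medulla, and at 8.16 CPM in the one labelled cervical cord. It was at 0.406 and 0.835 CPM in WT medulla at 5 weeks, and at 1.13 and 0.757 CPM in WT and 1.09 and 1.29 CPM in SCA7 medulla at 9 weeks. In cervical cord it was at 0.803 CPM at 5 weeks, 0.890 and 0.963 CPM in WT and 0.601 and 1.08 CPM in SCA7 at 9 weeks. The genotypes overlapped at 9 weeks in each tissue, and all adult libraries lay below all P8 libraries, with a change of -4.65 (SE 0.35) in WT medulla at 5 weeks, or -3.72 with the P8 library of the other label.

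*Aurkb*, the kinase of the chromosomal passenger complex, fell to the edge of detection. It was at 7.36 and 7.43 CPM in WT and 5.49 CPM in SCA7 in the P8 libraries labelled medulla and 5.43 CPM in the one labelled cervical cord. In medulla it was at 0.108 and 0.0576 CPM at 5 weeks, 0.203 and 0.121 CPM in WT and 0.197 and 0.0925 CPM in SCA7 at 9 weeks, and in cervical cord at 0.511 CPM at 5 weeks, 0.324 and 0.0292 CPM in WT and 0.0949 and 0.325 CPM in SCA7. These adult values rest on 1 to 14 counts, so small differences among them were not detectable at this depth. *Bub1*, a spindle checkpoint kinase, changed by -5.78 (SE 0.36) in WT medulla at 5 weeks, on 5 and 6 counts. *Plk1* and *Aurka*, kinases of the centrosome and spindle, changed by -2.70 and -2.36. With the P8 library of the other label the values were -5.97 for *Aurkb*, -4.97 for *Bub1*, -2.21 for *Plk1* and -1.73 for *Aurka*.

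*Bub1b*, which encodes the checkpoint protein BubR1, changed least of the kinases and checkpoint genes in WT medulla at 5 weeks (-1.88, SE 0.51, adjusted p = 0.022). It was not called with the P8 library of the other label (-1.42, adjusted p = 0.14). Its values in the 2 WT medulla libraries at 9 weeks, 2.26 and 6.94 CPM, lay far apart.

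The 5 genes of the mitotic cyclins and the anaphase promoting complex were all lower in each change from P8, under either P8 label. *Ccnb1* (chr13:100778739-100786486) was at 10.4 and 10.6 CPM in WT and 8.51 CPM in SCA7 in the P8 libraries labelled medulla and 5.79 CPM in the one labelled cervical cord. It was at 0.216 and 0.0576 CPM in WT medulla at 5 weeks, and at 0.174 and 0.121 CPM in WT and 0.0842 and 0.278 CPM in SCA7 medulla at 9 weeks. At 5 weeks in cervical cord it was at 0.182 CPM, and at 9 weeks it was at 0.121 and 0.204 CPM in WT and 0.190 and 0.163 CPM in SCA7 at 9 weeks. The adult values rest on 2 to 9 counts each and overlap between genotypes.

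*Ube2c*, the ubiquitin-conjugating enzyme of the complex, was at 13.1 and 12.7 CPM in WT and 12.5 CPM in SCA7 in the P8 libraries labelled medulla, and at 8.65 CPM in the one labelled cervical cord. Medulla libraries held 0.189 and 0.317 CPM at 5 weeks, 0.289 and 0.273 CPM in WT and 0.0281 and 0.278 CPM in SCA7 at 9 weeks, and cervical cord libraries held 0.621 CPM at 5 weeks, 0.890 and 0.671 CPM in WT and 0.221 and 0.217 CPM in SCA7. All adult libraries lay below all P8 libraries. At 5 weeks in WT medulla *Ccnb1* changed by -6.20, *Ube2c* by -5.66, *Cdc20*, the activator of the complex, by -3.80, *Ccna2* by -3.78 and *Ccnb2* by -3.59. With the P8 library of the other label the 5 values were, in the same order, -5.35, -5.09, -3.38, -3.26 and -3.12.

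All 13 genes of the spindle, kinetochore and cytokinesis were also lower in each change from P8, under either label. At 5 weeks in WT medulla they ranged from -5.36 for *Hmmr*, a microtubule-binding protein of the spindle, to -3.09 for *Birc5*, which encodes survivin. *Nusap1* (-4.93), *Cenpf* (-4.72), *Prc1* (-4.68), *Kif11* (-4.05), *Kif20a* (-4.03), *Cdca8* (-3.91), *Kif4* (-3.84), *Cenpe* (-3.60), *Tpx2* (-3.45), *Ect2* (-3.30) and *Kif23* (-3.13) lay between them. *Tpx2*, which activates the *Aurka* kinase on the spindle, had the smallest adjusted p of the 38 there (7.6e-06). *Kif4* has a pseudogene with its own symbol in the tables, and reads of near-identical copies may be split or lost.

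**Figure D2:**
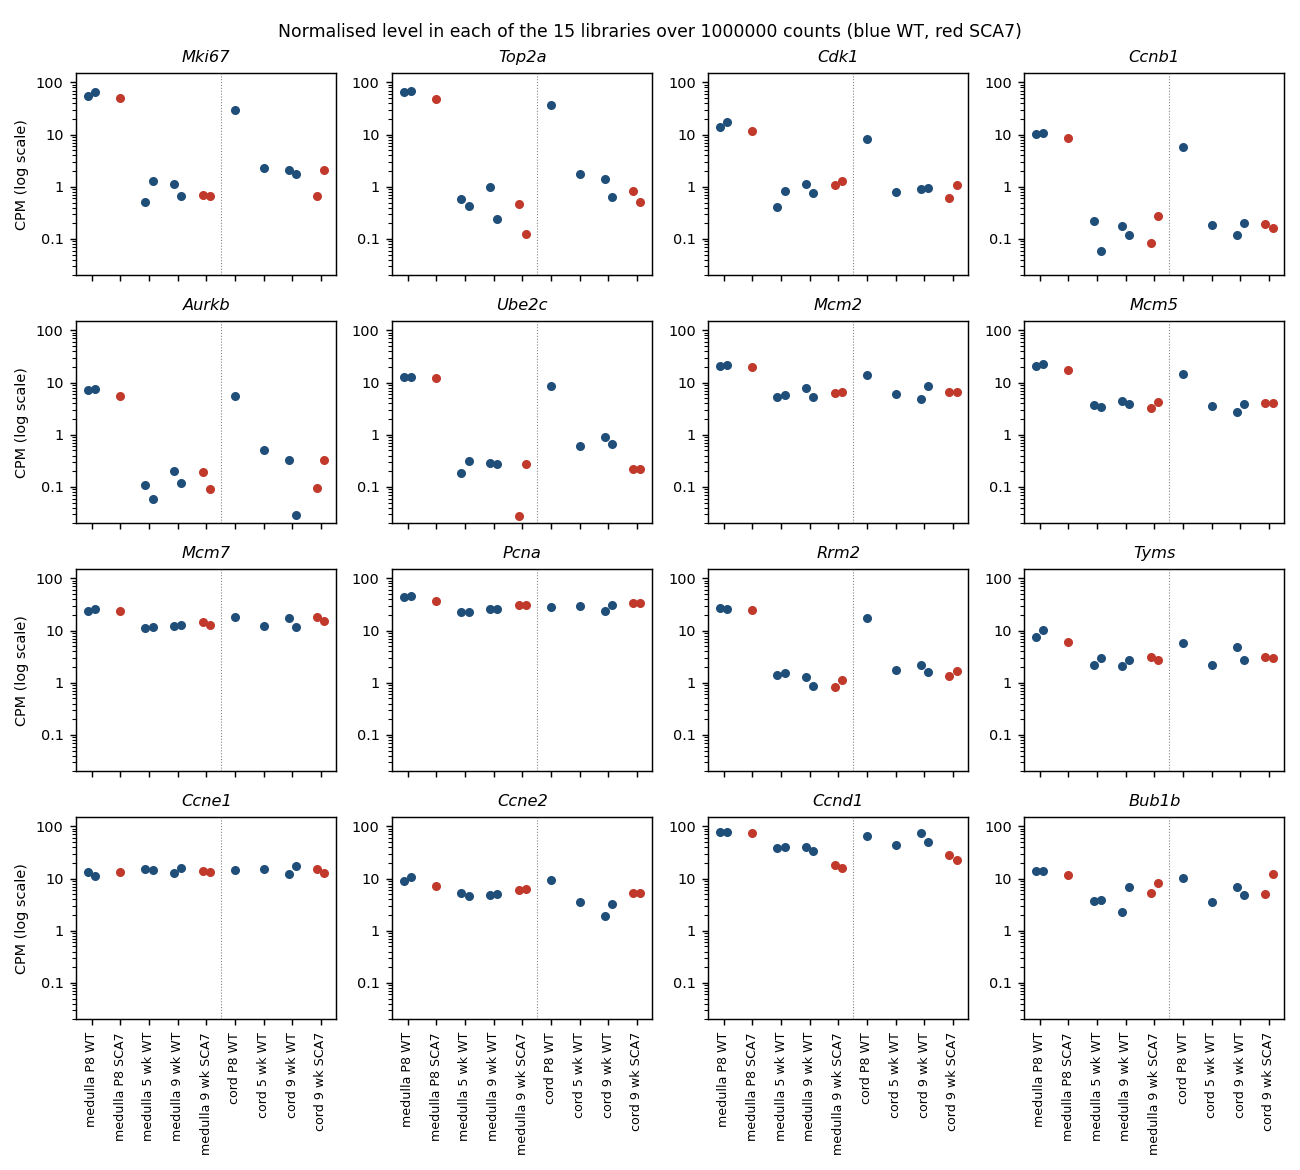
Normalised level (CPM, log axis) of 16 of the genes in each of the 15 libraries over 1000000 counts, by labelled group, WT in blue and SCA7 in red. *Ccnb1* drops from 5.79 to 10.6 CPM at P8 to at most 0.278 CPM in adult libraries, whereas *Pcna* and *Ccne1* stay within 22.2 to 46.8 and 11.2 to 17.3 CPM.

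Genes of DNA replication had a median change of -1.95 in WT medulla at 5 weeks, beside medians of -3.68 to -6.54 in the 4 groups of mitosis genes. *Rrm2*, a subunit of ribonucleotide reductase, changed most of the 9. It was at 26.7 and 26.2 CPM in WT and 24.4 CPM in SCA7 in the P8 libraries labelled medulla and 17.8 CPM in the one labelled cervical cord. In medulla it was at 1.38 and 1.53 CPM at 5 weeks, 1.30 and 0.848 CPM in WT and 0.814 and 1.11 CPM in SCA7 at 9 weeks, and in cervical cord at 1.75 CPM at 5 weeks, 2.18 and 1.57 CPM in WT and 1.33 and 1.68 CPM in SCA7. Its change in WT medulla was -4.19 (SE 0.25) at 5 weeks and -4.61 (SE 0.26, adjusted p = 6.8e-06) at 9 weeks, and -3.61 and -4.04 with the P8 library of the other label.

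The helicase subunits *Mcm2* to *Mcm7* kept a larger share of their P8 level. *Mcm2* was at 20.9 and 22.1 CPM in WT and 19.6 CPM in SCA7 in the P8 libraries labelled medulla and 14.1 CPM in the one labelled cervical cord. It was at 5.30 and 5.88 CPM at 5 weeks, 7.93 and 5.33 CPM in WT and 6.26 and 6.66 CPM in SCA7 medulla at 9 weeks. Cervical cord libraries held 6.13 CPM at 5 weeks, and 4.85 and 8.61 CPM in WT and 6.67 and 6.70 CPM in SCA7. Both SCA7 cervical values lay between the 2 WT values.

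*Mcm5* was at 21.2 and 22.6 CPM in WT and 17.6 CPM in SCA7 in the P8 libraries labelled medulla and 14.4 CPM in the one labelled cervical cord, and at 3.70 and 3.40 CPM in WT medulla at 5 weeks. At 9 weeks it was at 4.37 and 3.82 CPM in WT and 3.28 and 4.16 CPM in SCA7 medulla, and at 2.75 and 3.97 CPM in WT and 4.11 and 4.09 CPM in SCA7 cervical cord, with 3.61 CPM at 5 weeks. All 11 deep adult libraries thus lay far below P8.

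*Mcm7* was at 23.6 and 26.0 CPM in WT and 23.3 CPM in SCA7 in the P8 libraries labelled medulla and 18.4 CPM in the one labelled cervical cord. It was at 11.4 and 11.7 CPM at 5 weeks and 12.3 and 12.5 CPM at 9 weeks in WT medulla, and at 14.5 and 13.0 CPM in SCA7 medulla. In cervical cord it was at 12.3 CPM at 5 weeks, 17.3 and 11.5 CPM in WT and 18.0 and 15.1 CPM in SCA7 at 9 weeks. The highest adult cervical values came close to the P8 library of that label.

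The changes in WT medulla at 5 weeks were -2.62 for *Mcm5*, -2.53 for *Mcm3*, -2.48 for *Mcm6*, -1.95 for *Mcm2*, -1.10 for *Mcm7* and -1.0 for *Mcm4*. *Mcm7* (-0.68, adjusted p = 0.073) and *Mcm4* (-0.52, adjusted p = 0.16) were not called with the P8 library of the other label.

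*Pcna* (chr2:132249286-132253180) was at 43.6 and 46.8 CPM in WT and 37.4 CPM in SCA7 in the P8 libraries labelled medulla, but at 28.1 CPM in the one labelled cervical cord. It was at 22.2 and 23.0 CPM at 5 weeks and 25.8 and 25.7 CPM at 9 weeks in WT medulla, and at 30.3 and 31.6 CPM in SCA7 medulla. At 5 weeks in cervical cord it was at 29.3 CPM, and at 9 weeks it was at 24.0 and 30.8 CPM in WT and 33.9 and 33.0 CPM in SCA7 at 9 weeks. Whether it was lower in adults depended on the P8 libraries used. Against those labelled medulla the change was -1.0 (SE 0.13, adjusted p = 0.00066) in WT medulla at 5 weeks and -0.72 (adjusted p = 0.0034) in WT cervical cord at 9 weeks. Against the one labelled cervical cord it was -0.32 (adjusted p = 0.23) and -0.04 (adjusted p = 0.88).

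*Tyms*, thymidylate synthase, was at 7.46 and 10.4 CPM in WT and 6.12 CPM in SCA7 in the P8 libraries labelled medulla and 5.87 CPM in the one labelled cervical cord. Medulla libraries held 2.19 and 2.94 CPM at 5 weeks, 2.14 and 2.73 CPM in WT and 3.06 and 2.71 CPM in SCA7 at 9 weeks, and cervical cord libraries held 2.23 CPM at 5 weeks, 4.81 and 2.77 CPM in WT and 3.07 and 3.04 CPM in SCA7. All adult libraries lay below all P8 libraries, and the change in WT medulla at 5 weeks was -1.79 (SE 0.29, adjusted p = 0.0018), or -1.20 (adjusted p = 0.042) with the P8 library of the other label. A pseudogene of *Tyms* has its own symbol in the tables, so its reads are uncertain too.

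The 3 G1 cyclins did not share 1 pattern. *Ccne1*, cyclin E1 (chr7:38097984-38107490), was at 13.5 and 11.2 CPM in WT and 13.6 CPM in SCA7 in the P8 libraries labelled medulla and 14.6 CPM in the one labelled cervical cord. In medulla it was at 14.9 and 14.4 CPM at 5 weeks, 12.7 and 16.2 CPM in WT and 14.0 and 13.3 CPM in SCA7 at 9 weeks, and in cervical cord at 15.2 CPM at 5 weeks, 12.4 and 17.3 CPM in WT and 15.4 and 12.7 CPM in SCA7. P8 and 9 weeks overlapped, and it was the 1 gene of the 38 not called in WT medulla at 5 weeks (0.24, SE 0.20, adjusted p = 0.39). With the P8 library of the other label the value was 0.01 (SE 0.24).

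*Ccne2*, cyclin E2 (chr4:11190433-11204779), was at 8.96 and 10.7 CPM in WT and 7.25 CPM in SCA7 in the P8 libraries labelled medulla and 9.59 CPM in the one labelled cervical cord. It was at 5.30 and 4.67 CPM at 5 weeks and 4.80 and 5.12 CPM at 9 weeks in WT medulla, and at 6.12 and 6.20 CPM in SCA7 medulla. Cervical cord libraries held 3.58 CPM at 5 weeks, and 1.90 and 3.24 CPM in WT and 5.34 and 5.32 CPM in SCA7 at 9 weeks. All adult values lay below all P8 values, with changes of -0.98 (SE 0.22, adjusted p = 0.0094; -0.94 and adjusted p = 0.036 with the P8 library of the other label) in WT medulla at 5 weeks and -1.88 (SE 0.27, adjusted p = 0.00092) in WT cervical cord at 9 weeks.

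*Ccnd1*, cyclin D1, which responds to growth signals (chr7:144929931-144939831), was at 79.6 and 79.3 CPM in WT and 76.0 CPM in SCA7 in the P8 libraries labelled medulla and 64.5 CPM in the one labelled cervical cord. It was at 38.6 and 40.2 CPM at 5 weeks and 39.5 and 33.2 CPM at 9 weeks in WT medulla, and at 18.0 and 16.2 CPM in SCA7 medulla. In cervical cord it was at 44.9 CPM at 5 weeks, 75.3 and 51.1 CPM in WT and 27.8 and 22.2 CPM in SCA7 at 9 weeks. In WT medulla at 5 weeks the change was -1.01 (SE 0.19, adjusted p = 0.0038), or -0.71 with the P8 library of the other label (adjusted p = 0.058). In WT cervical cord, where the 2 libraries at 9 weeks lay on both sides of the P8 library of that label, it was -0.03 (SE 0.23, adjusted p = 0.94).

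Levels of different genes were compared per length, as CPM per kb of exon (GENCODE M21). In the WT P8 libraries labelled medulla, *Pcna* (18.8 CPM per kb), *Ccnd1* (16.9) and *Rrm2* (9.55) were highest, and *Top2a* (7.42) and *Mki67* (5.96) ranked 5 and 8. In WT medulla at 9 weeks *Pcna* (10.7), *Ccnd1* (7.72) and *Ccne1* (5.43) were highest, and *Mki67* (0.0892) and *Top2a* (0.0696) ranked 32 and 33 of 38.

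**Figure D3:**
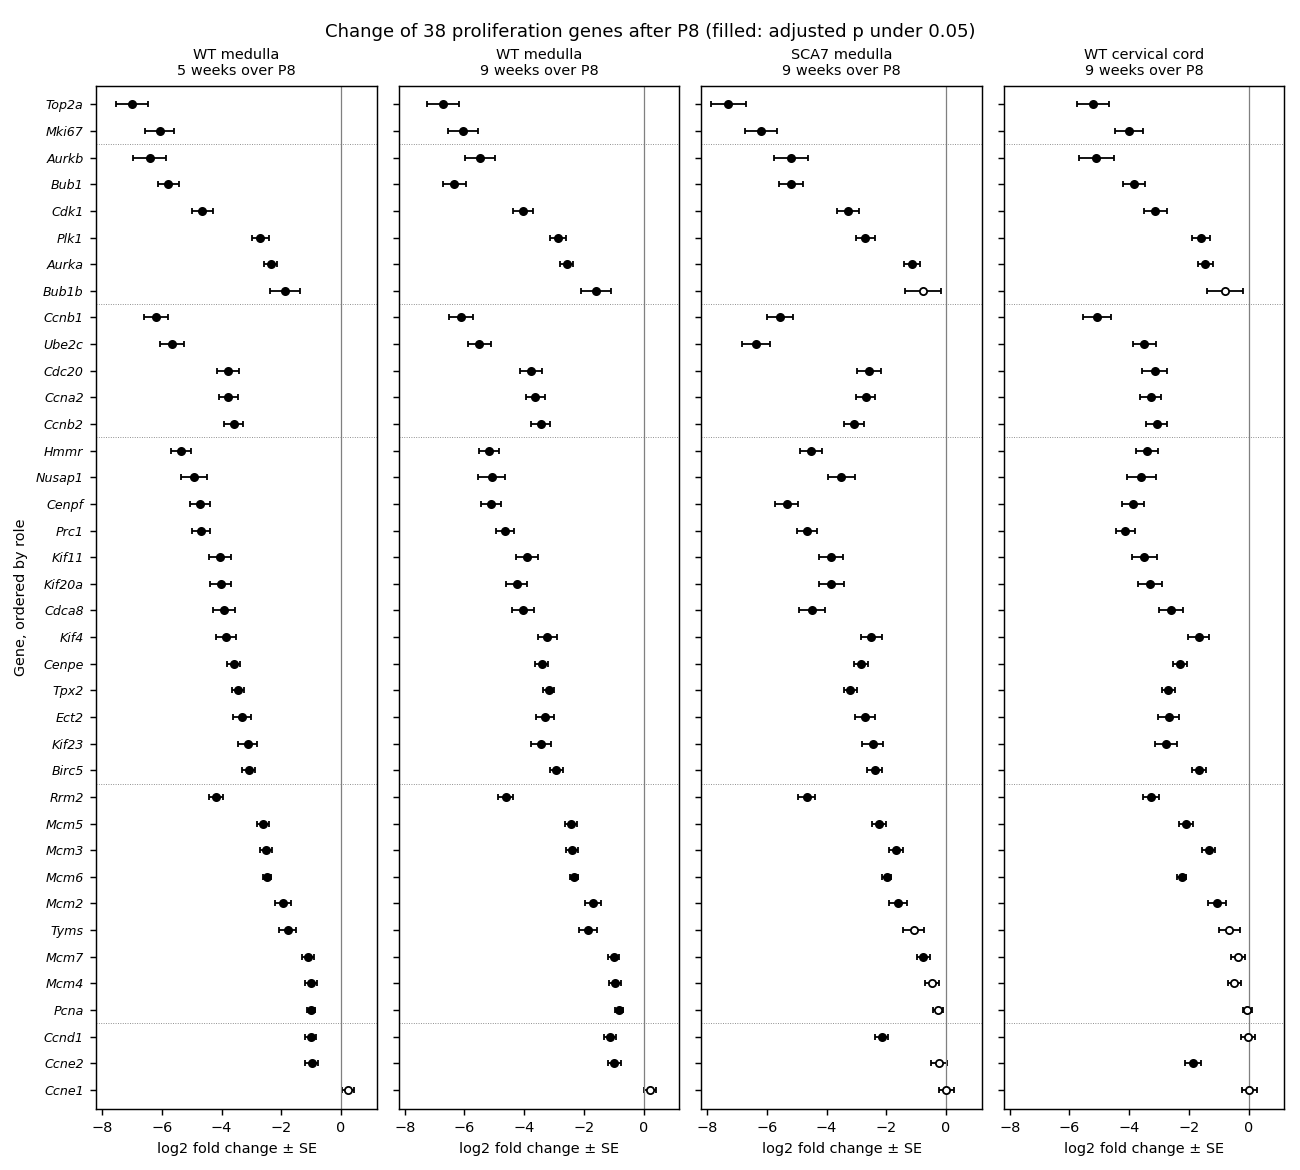
Log2 fold change from P8 of each of the 38 genes, with SE as the bar, in 4 comparisons by tissue label, grouped by role. Filled points have an adjusted p below 0.05. The mitosis groups lie further left than most replication genes and the G1 cyclins, with *Rrm2* apart from the other replication genes.

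In WT cervical spinal cord at 9 weeks, 31 of the 38 genes were lower than in the P8 library of that label (median -2.69), against 15.9% of all genes lower and 13.2% higher (29.1% in all). Against the P8 libraries labelled medulla 35 were lower (median -3.24), with 16.4% of all genes lower and 14.4% higher. In SCA7 medulla at 9 weeks, 32 were lower than in the deep SCA7 P8 library labelled medulla (median -2.71), against 11.9% lower and 8.40% higher (20.3% in all). Both deep SCA7 libraries lay below that P8 library in 37 of the 38 genes, as they did in 43.9% of all genes, and above it in 45.0% of all genes. In SCA7 cervical cord 30 were lower than in that same P8 library (median -2.598), against 12.7% lower and 8.96% higher. None of the 38 was higher in these 4 comparisons. *Top2a* and *Mki67* changed by -7.29 (SE 0.60) and -6.20 (SE 0.53) in SCA7 medulla, where the 6 genes not called were *Bub1b*, *Mcm4*, *Pcna*, *Tyms*, *Ccne1* and *Ccne2*, with values from -1.08 to 0.01. *Tyms* lay at the threshold there (adjusted p = 0.054), since DESeq2 called it (-1.10, adjusted p = 0.040), as did edgeR with at least 10 counts in every library (0.049) and with the libraries of the tissue alone (0.030), and the value ranged from -1.17 to -0.46 over all alternatives.

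Between 5 and 9 weeks in WT medulla none of the 38 genes was called in edgeR's test (median 0.10, values from -0.55 to 0.93), and neither was any of the 21318 genes (0%). An unadjusted p below 0.05 was found for 0 of the 38 and 879 of all genes, and DESeq2 called 0 of the 38.

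The change from P8 to 9 weeks was then compared between genotypes. The SCA7 change minus the WT change in medulla had a median of 0.45 over the 38 genes, with 28 positive and 0 called, against 1 gene of all 21318 called (0.00469%, higher). An unadjusted p below 0.05 was found for 5 of the 38 and 2225 of all genes, and DESeq2 called 0 of the 38. The SCA7 value at P8 rests on 1 library.

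Between tissues the result depended on the P8 labels. Some mice gave deep libraries of both labels, and these were not paired. With the labels as given, the cervical change minus the medulla change was positive for 36 of the 38 genes (median 0.93) and 0 were called in edgeR's test (smallest adjusted p = 0.053), against 3.98% of all genes lower and 2.81% higher (6.79% in all). An unadjusted p below 0.05 was found for 17 of the 38 and 5557 of all genes. DESeq2 called 9 of the 38, and the number called by edgeR varied when single libraries were left out. The shares of all genes called in those fits are not given here, so these counts cannot be set against a background. With the P8 libraries of the 2 labels exchanged, 29 were negative (median -0.24) and 0 were called, as for all genes (0%).

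At P8, in the libraries labelled medulla, edgeR called 0 of the 38 genes between SCA7 and WT, as for all genes (0%). There were 37 negative values (median -0.30, values from -0.59 to 0.13), with an all-gene median of -0.02. The 1 deep SCA7 library lay below both WT libraries in 35 of the 38 genes and above both in 1, against 36.8% and 35.8% of all genes. An unadjusted p below 0.05 was found for 1 of the 38 and 572 of all genes, and DESeq2 called 0 of the 38. The shallow SCA7 library of that label summed to 657 library CPM (95% interval 505 to 840.3). Cell type markers, of which 0 were called, also lay to 1 side in this comparison. All 8 oligodendrocyte markers (median -0.53, 3 with an unadjusted p below 0.05) and all 8 meningeal fibroblast markers (median -1.90) had negative values, and all 8 neuron markers (median 0.28) and the 7 cerebellar granule neuron markers tested (median 0.67) had positive ones. Their part in the values of the 38 genes was not tested.

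At 5 weeks no test was made, since in medulla only WT was sequenced deeply and depth and genotype cannot be told apart. The 38 genes summed to 148 and 149 library CPM in WT medulla and to 153 and 131 in SCA7 medulla, the latter on 16 and 15 counts. In cervical cord they summed to 149 and 165 in WT and 136 and 109.6 in SCA7. The intervals of the 4 SCA7 libraries each held both WT values of their tissue, so a difference was not detectable at this depth.

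At 9 weeks few of the 38 genes differed between genotypes. In medulla 1 was called, *Ccnd1*, lower in SCA7, against 1.14% of all genes lower and 0.633% higher (1.77% in all). The median over the 38 was 0.24 and over all genes 0. In cervical cord 3 were called, *Ccnd1* lower and *Aurka* and *Ccne2* higher, against 4.91% of all genes lower and 3.26% higher (8.16% in all). The median there was 0.19, and 0.02 over all genes. These shares lie near the background. The summed levels overlapped between genotypes in medulla after TMM scaling, but per library total both SCA7 libraries lay above WT (168 and 170.2 against 154 and 156 library CPM). In cervical cord both SCA7 libraries lay below WT after TMM scaling but above it per library total (193 and 193 against 174 and 186 library CPM).

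*Ccnd1* was the gene called in both tissues. Its 2 deep SCA7 libraries lay below the 2 WT libraries in each, at the values given above, as did 30.7% of all genes in medulla and 24.0% in cervical cord. The log2 fold change was -1.09 in medulla (SE 0.19, adjusted p = 0.026) and -1.34 in cervical cord (SE 0.19, adjusted p = 0.006). Both tissues came from the same 2 SCA7 mice and so are not independent. The medulla call was lost without any 1 of the 4 libraries (WT replicate 2, adjusted p = 0.22; WT replicate 5, 0.088; SCA7 replicate 4, 0.13; SCA7 replicate 5, 0.29 by edgeR), and the cervical call was lost without SCA7 replicate 5 (adjusted p = 0.10). Over all alternatives the value stayed negative, from -0.95 to -1.83 in medulla (adjusted p 4.4e-05 to 1) and from -1.01 to -1.59 in cervical cord (2.2e-08 to 0.43).

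The shallow libraries at 9 weeks came from other SCA7 mice, and intervals on their summed counts cover counting error only. In medulla *Ccnd1* had 10 counts of 372667 in 3 WT libraries and 1 count of 627850 in 3 SCA7 libraries, which is 26.8 library CPM (95% interval 12.9 to 49.4) and 1.59 (0.0403 to 8.87). Without SCA7 replicate 2, in which 10 symbols took 64.9% of the counts, the SCA7 value was 1 count of 231433, or 4.32 (0.109 to 24.1), and the intervals overlap. In cervical cord 9 counts of 411477 in WT and 7 of 402538 in SCA7 gave 21.9 (10 to 41.5) and 17.4 (6.99 to 35.8), and no difference was detectable. At 5 weeks the values were 37.4 and 38.9 in the deep WT medulla libraries and 22.8 (7.40 to 53.2) in the SCA7 ones.

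**Figure D4:**
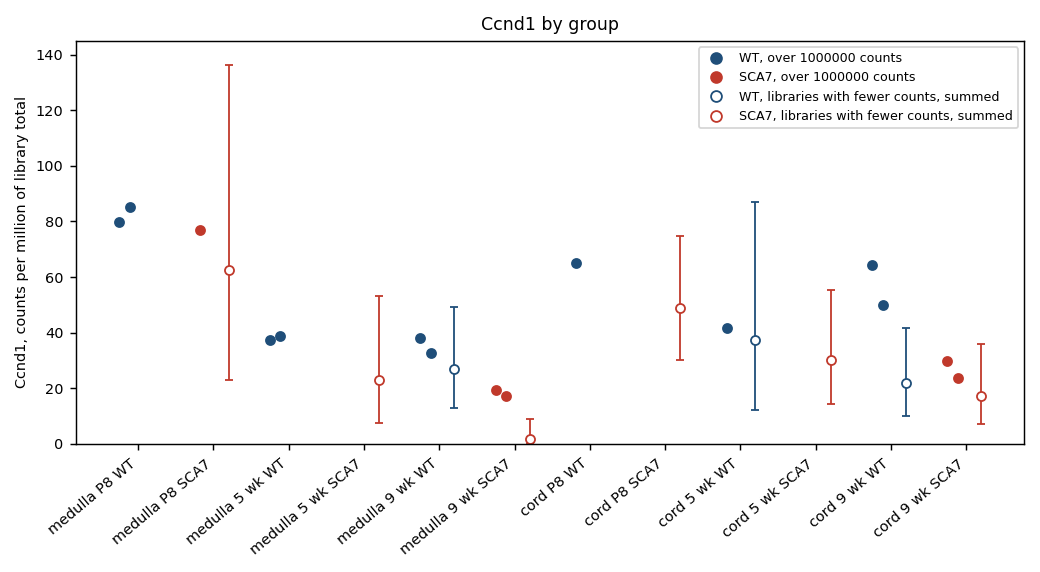
*Ccnd1* in counts per 1000000 counts of the library by labelled group. Filled points are single libraries over 1000000 counts, and open points the summed shallow libraries of a group with exact 95% Poisson intervals. At 9 weeks the deep SCA7 libraries lie below the deep WT libraries in both tissues. The shallow libraries show 1.59 in SCA7 against 26.8 in WT in medulla. Without SCA7 replicate 2 the SCA7 value is 4.32 (0.109 to 24.1), and its interval overlaps that of WT. In cervical cord the shallow intervals overlap.

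*Aurka* (chr2:172356190-172370886) was at 6.15 and 6.98 CPM in WT and 4.43 CPM in SCA7 in the P8 libraries labelled medulla and 4.24 CPM in the one labelled cervical cord. In cervical cord at 9 weeks it was at 1.496 and 1.604 CPM in WT and 2.72 and 3.17 CPM in SCA7, with 2.04 CPM in WT at 5 weeks. Medulla libraries held 1.16 and 1.38 CPM at 5 weeks, 1.27 and 0.909 CPM in WT and 1.97 and 2.04 CPM in SCA7 at 9 weeks. The genotypes did not overlap at 9 weeks in either tissue, as held for 29.8% of all genes higher in medulla and 27.8% in cervical cord. The change was 0.92 in cervical cord (SE 0.24, adjusted p = 0.043) and 0.87 in medulla (SE 0.25, adjusted p = 0.12), where it was not called.

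*Ccne2* was 1.03 higher in SCA7 cervical cord (log2, SE 0.24, adjusted p = 0.032), and in medulla the value was 0.31 (SE 0.22, adjusted p = 0.55). Without cervical WT replicate 1, SCA7 replicate 4 or SCA7 replicate 5 neither *Aurka* (adjusted p = 0.11, 0.11 and 0.27 by edgeR) nor *Ccne2* (0.08, 0.12 and 0.19) was called. The shallow cervical libraries at 9 weeks held 0 counts of *Aurka* and 1 count of *Ccne2* in each genotype. *Ube2c*, lower in both deep SCA7 cervical libraries, was not called (-1.80, SE 0.52, adjusted p = 0.063), but DESeq2 called it (-1.85, adjusted p = 0.010), as did edgeR without WT replicate 5 (-2.01, adjusted p = 0.040). Over all alternatives *Ube2c* ranged from -2.01 to -1.13 (adjusted p 0.010 to 0.99).

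The markers of dividing cells were not called between genotypes in either tissue. *Mki67* had values of -0.38 (SE 0.58) in medulla and -0.41 (SE 0.49) in cervical cord, *Top2a* -1.04 (SE 0.72) and -0.58 (SE 0.61), and *Cdk1* 0.33 (SE 0.38) and -0.12 (SE 0.41). The replication genes ranged from -0.17 to 0.33 in medulla and from -0.30 to 0.42 in cervical cord, and none was called. With 2 libraries per genotype, even differences of several times their standard error could go uncalled, as for *Ube2c* in cervical cord above.

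**Figure D5:**
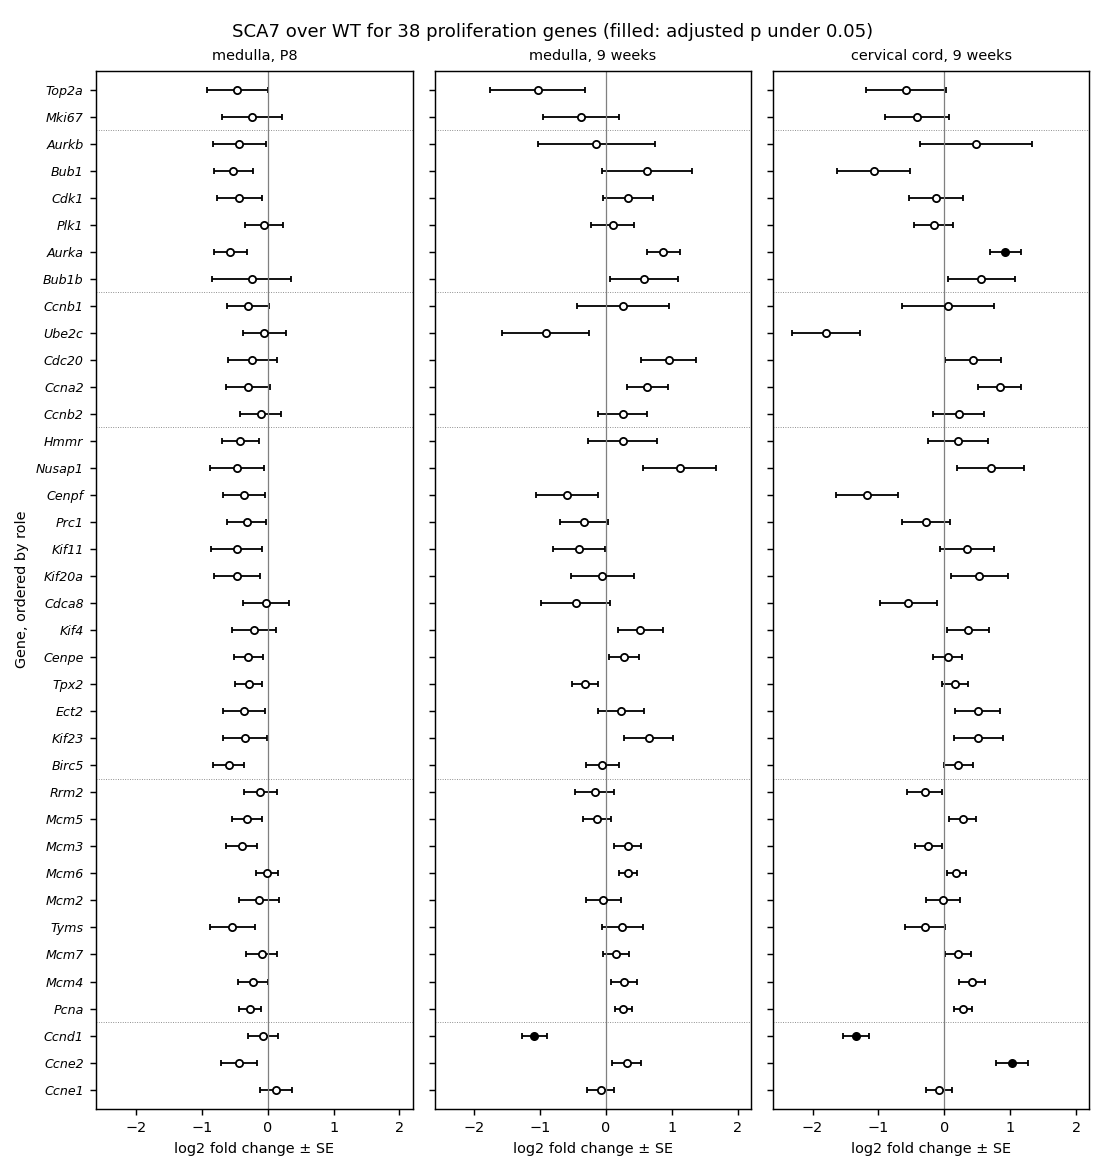
Log2 fold change of SCA7 over WT with SE for the 38 genes in the P8 libraries labelled medulla and in both tissues at 9 weeks, grouped by role. Filled points have an adjusted p below 0.05 and are *Ccnd1* in both 9-week panels and *Aurka* and *Ccne2* in the cervical panel. At P8 37 of the 38 points lie left of 0 and none is filled.

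Other genes of the cell cycle were taken from lists. Of 25 other mitosis genes, 24 were lower and 1 higher in WT medulla at 5 weeks than in the P8 libraries labelled medulla (median -3.40). *Esco2*, a cohesin acetyltransferase, and *Cenpa*, the centromeric histone, changed by -4.75 and -4.16. The higher one was *Anln* (1.18, SE 0.26, adjusted p = 0.009), which encodes anillin, an actin-binding protein of the cleavage furrow. Of 20 other replication genes 18 were lower (median -1.47), with *Uhrf1* at -4.23 and *Chaf1b* at -4.05. Of 12 other cyclins, CDKs and E2F factors 10 were lower (median -2.06), among them *Ccnd2* (-2.42) and *Cdc25c* (-5.62). Of 12 cell cycle brakes 5 were lower (median -0.21), with *Cdkn2c* at -3.13 and *Rbl1* at -2.08. Against the P8 library labelled cervical cord, 24 of the other mitosis genes were lower and *Anln* was again the 1 higher (2.84), and 15 of the replication genes, 8 of the cyclins, CDKs and E2F factors and 3 of the brakes were lower (medians -2.90, -1.24, -1.42 and -0.29).

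Between genotypes at 9 weeks each of these lists held at most 1 call in a tissue. Of all genes 1.77% were called in medulla and 8.16% in cervical cord. Apart from the brake, the calls named here were not tested under the alternatives or without single libraries. *Nuf2*, a kinetochore gene, was the 1 called of 25 other mitosis genes in each tissue, lower in SCA7 medulla (-1.91, adjusted p = 0.045) and cervical cord (-2.10, adjusted p = 0.018). *Cdc45*, a helicase cofactor, was higher in medulla (1.04, adjusted p = 0.048), 1 of 20 replication genes. *Ccnd2*, cyclin D2, was higher in SCA7 medulla (0.88, SE 0.18, adjusted p = 0.044), at 39.0 and 29.4 CPM against 19.8 and 17.3 CPM in WT, opposite in direction to *Ccnd1*. In cervical cord *Ccnd2* overlapped between genotypes, and *Cdc25b*, a phosphatase that activates CDKs, was higher (0.68, adjusted p = 0.021).

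*Cdkn1a*, which encodes the CDK inhibitor p21, was the 1 brake called. It was at 19.0 and 18.0 CPM in WT and 81.5 and 89.6 CPM in SCA7 medulla at 9 weeks, a log2 fold change of 2.21 (SE 0.27, adjusted p = 0.0051). The call was lost without WT replicate 2, WT replicate 5 or SCA7 replicate 5 (adjusted p = 0.094, 0.063 and 0.07 by edgeR), where the values were 2.25, 2.17 and 2.14, and over all alternatives the value ranged from 2.14 to 3.20. The shallow medulla libraries held 5 counts in WT and 71 in SCA7, or 13.4 (4.36 to 31.3) and 113 (88.3 to 143) library CPM. In cervical cord it was at 63.9 and 37.3 CPM in WT and 98.8 and 93.8 CPM in SCA7 and was not called. The summed shallow libraries there gave 43.7 (25.9 to 69.1) and 156 (120.3 to 200.2) library CPM. These intervals on summed counts leave out the spread between mice. Single shallow cervical libraries held 8.92, 79.1 and 37.4 library CPM in WT and 153, 290.4 and 46.3 in SCA7, so the genotypes overlapped.

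Several cell type markers differed beside the proliferation genes in the comparison of WT medulla at 5 weeks with P8, and many of these calls depended on the P8 label. Against the P8 libraries labelled medulla, 6 of 7 markers of oligodendrocyte precursors were lower (median -1.08), such as *Gpr17* (-2.26) and *Pdgfra* (-1.67), and against the one labelled cervical cord 4 were (median -0.68; *Gpr17* -2.07, *Pdgfra* -1.66). Of 8 neural progenitor markers 6 were lower (median -1.42), such as *Fabp7* (-4.00) and *Sox2* (-1.29), and 7 with the other label (median -1.54; *Fabp7* -4.15, *Sox2* -0.87). The precursor markers summed to 1354 to 1801 CPM in the WT P8 libraries labelled medulla and 1296 CPM in the one labelled cervical cord, against 660.3 to 725 CPM in WT medulla at 5 weeks, with 0 of the 7 at 0. Their part in the fall of the proliferation genes was not tested.

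Markers of other cells depended more on the label. Astrocyte markers were lower for 5 of 8 (median -0.62), such as *Aqp4* (-2.17) and *Aldh1l1* (-0.93), but for 2 with the other label (median -0.35), where *Aqp4* was not called (-1.12, adjusted p = 0.052). All 5 red blood cell markers were lower, including *Alas2* (-3.75) and *Hbb-bt* (-3.89), and 3 of 8 meningeal fibroblast markers were, including *Col1a2* (-2.75) and *Col1a1* (-3.62), whereas 0 of either list were called with the other label (medians -1.67 and -0.44). The meningeal markers summed to 367 CPM in one and 2814 CPM in the other WT P8 library labelled medulla, and to 668 CPM in the one labelled cervical cord. *Kdr* was the 1 of 8 endothelial or pericyte markers called, lower with either label (-1.94 and -2.47). *P2ry12* (-0.63) was the 1 of 8 microglial markers called, lower, but was not called with the other label (-0.17, adjusted p = 0.63), with which *C1qa* was the 1 called, higher (1.03, adjusted p = 0.033).

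Of 7 cerebellar granule neuron markers tested, 3 were higher than in the P8 libraries labelled medulla, among them *Barhl1* (1.86) and *Gabra6* (7.74), the latter at 0.649 and 26.0 CPM in the 2 libraries at 5 weeks. With the other label 0 were called, and *Barhl1* was 0.15 (adjusted p = 0.84) and *Gabra6* 6.16 (adjusted p = 0.064). These markers summed to 101 to 341 CPM in WT medulla at 5 weeks, to 101 to 123 CPM in the WT P8 libraries labelled medulla and to 254 CPM in the one labelled cervical cord. Of 8 oligodendrocyte markers *Opalin* (2.50) and *Aspa* (1.15) were higher, and 6 of the 8 with the other label (*Opalin* 3.78, *Aspa* 2.74). They summed to 12980 to 15720 CPM at P8 under the medulla label, 5311 CPM under the cervical label and 9852 to 15180 CPM in WT medulla at 5 weeks. Of 8 neuron markers *Snap25* (2.01) and *Syt1* (1.35) were higher and *Stmn2* (-0.69) lower, and with the other label *Snap25* was 1.62, *Stmn2* -1.45 and *Syt1*, not called, 0.04.

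At 9 weeks cell type markers differed between genotypes beside *Ccnd1*. In medulla 4 of 8 oligodendrocyte, 4 of 8 microglia, 2 of 8 astrocyte and 1 of 7 precursor markers were lower in SCA7. In edgeR's test 0 of 5 red blood cell markers were called there (median -2.04, smallest adjusted p = 0.10). The same held for 0 of 8 endothelial and pericyte markers (median -0.43, smallest adjusted p = 0.13) and 0 of 8 meningeal fibroblast markers (median 0.14). In cervical cord 8 oligodendrocyte, 7 microglia, 3 astrocyte and 5 precursor markers were lower. So were 5 of 5 red blood cell, 4 of 8 endothelial and pericyte and 2 of 8 meningeal fibroblast markers, the latter with 8 negative values (median -2.88). Of 8 neural progenitor markers 1 was lower in medulla (median -0.14) and 2 in cervical cord (median -0.59). Meningeal markers summed to 230.1 to 1001 CPM in WT and 92.9 to 99.4 CPM in SCA7 cervical cord. Oligodendrocyte markers summed to 9979 to 11620 CPM in WT and 3843 to 4231 CPM in SCA7 medulla, and to 16310 to 28310 CPM and 5424 to 5621 CPM in cervical cord. Endothelial and pericyte markers summed to 209 to 337 CPM in WT and 162 to 184 CPM in SCA7 medulla, and to 238 to 465 CPM and 133 to 139 CPM in cervical cord. Of these 3 lists 0 markers were at 0, and their part in the difference of *Ccnd1*, *Aurka* and *Ccne2* was not tested.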

How the data were processed

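Total RNA of medulla and cervical spinal cord was sequenced in 35 libraries. The authors mapped reads to mouse genome GRCm38, kept uniquely mapping reads and deposited raw counts per gene symbol. The labels name mm10, and the aligner, counting program and strand setting are not given in the sources used here.

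The deposited counts were analysed in R 4.3.3 with edgeR 4.0.16 (TMM, quasi-likelihood test), in 1 fit of the 15 libraries over 1000000 counts in 9 groups of tissue, age and genotype (6 residual degrees of freedom), with genes of at least 10 counts in any of them, Benjamini-Hochberg adjustment over 21318 genes and a threshold of 0.05. Standard errors are the log2 fold change over the square root of F. Alternatives were DESeq2 1.42.0, other scalings, filters and library sets, a replicate block and leaving out each library. The use of P8 libraries of the other tissue label was chosen after seeing the data. The fits were tested on simulated counts.

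The limit of detection (3 counts) was 0.0302 to 0.104 library CPM in deep and 7.57 to 31.3 in shallow libraries, and 11 of 570 values of the 38 genes in deep libraries were at or under it. Replicates were separate mice, and their libraries differed by more than sampling noise (chi-square over its degrees of freedom 7.02 or more). The 38 genes and all lists were chosen with earlier results of these data known. All 38 are named, with values per library for 15 of them and for any called between genotypes. From each other list the 2 genes with the smallest p in each direction in WT medulla at 5 weeks are named, and any brake called between genotypes. Of the precursor list 1 marker is not reported here and was left out of its counts. *Nuf2*, *Cdc45*, *Cdc25b* and *Ccnd2* between genotypes were named after their values were seen.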

Additional observations from a re-analysis of the deposited data

Results flagged for a closer look

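In SCA7 medulla at 9 weeks 1 of 5 libraries, replicate 2, stood far below the others in the summed counts of the 38 genes, at 63.1 library CPM against 150.2 to 170.2 in the other libraries. In that library 10 symbols took 64.9% of the counts, and after TMM scaling over all 35 libraries its sum was 168 CPM. There were 4 groups of 5 libraries examined in this way, and chance marks about 1 in 20 such groups.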

How the results depend on the processing

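The falls from P8 kept their direction as counts of genes under the alternatives run, with 29 to 37 genes lower in WT medulla at 5 weeks and at 9 weeks, 25 to 34 in SCA7 medulla and 21 to 35 in WT cervical cord. The 1 call in medulla at 9 weeks between genotypes became 0 with all 35 libraries, with the 5 WT and 5 SCA7 libraries alone (edgeR and DESeq2), and without any 1 replicate (0 to 0). The 3 calls in cervical cord became 0 in the same library sets and with the libraries of the tissue alone, and 0 to 9 without 1 replicate (0 without SCA7 replicate 5, 1 without WT replicate 1 or SCA7 replicate 4, 9 without WT replicate 5). The tissue difference of the changes, 0 calls, became 9 with DESeq2, 1 with library totals, 6 with at least 10 counts in every library and 0 to 14 without 1 replicate (1 without the P8 WT library labelled medulla, replicate 1). By library totals the mean summed levels were 193 in SCA7 and 180.1 in WT cervical cord at 9 weeks, the opposite order to TMM, and 149 in WT medulla at 5 weeks and 169 in SCA7 medulla at 9 weeks. Of 832 alternatives for 69 named gene results, 745 kept their direction and side of the threshold, 66 lost and 10 gained a call and 11 changed sign. The sign changes, all of values not called, were *Ccne1* in SCA7 medulla (-0.006 with DESeq2 and with its size factors; -0.0255 to 0.0442 without 1 replicate), in WT cervical cord (-0.0955 with library totals; -0.2298 to 0.2712 without 1 replicate) and in WT medulla at 9 weeks (-0.0123 with the P8 library of the other label). In WT cervical cord *Pcna* became 0.2429 with all 35 libraries, *Tyms* 0.51 with all 35 libraries and *Ccnd1* ranged from -0.308 to 0.226 without 1 replicate, and *Pcna* from -0.2290 to 0.1559. *Ube2c* between genotypes in medulla became 0.0291 with the replicate block, with which 0 genes were called in either tissue at 9 weeks. The main fits did not pair samples by number. Same-numbered libraries had correlations of -0.81 to 0.94 in medulla and -0.71 to 0.91 in cervical cord, and 1 of 5 in each matched its own number best. Replicate 5, deep in both genotypes, gave 0.94 and 0.91, and numbers deep in 1 genotype only gave -0.81 to -0.65. Deep and shallow libraries are mixed in these correlations, so they cannot show whether the numbers pair the samples. The shares of all genes called under the alternatives are not given here, so the counts above cannot be set against a background. The cause of the changes under the alternatives was not tested. Depth limits the shallow libraries to genes above 7.57 to 31.3 library CPM, and the P8 changes rest on 1 library in SCA7 and 1 under the cervical label.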
